A study of Ovis aries with 24 samples.

Results

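HSD11B1, CEBPB and ALDH1A1 were followed in 2 sheep vessels, ductus arteriosus and ascending aorta, through maturation from preterm fetuses to newborn lambs. The 3 genes were chosen by name, with their differences between near-term and preterm vessels already known, and every probe whose array annotation names one of them was taken. That gave 4 of the 15008 probes of the array: 2 for HSD11B1, 1 for CEBPB and 1 for ALDH1A1, and all 4 passed the filter on low signal that left 13997 probes.

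HSD11B1 encodes 11-beta-hydroxysteroid dehydrogenase type 1, an enzyme of the endoplasmic reticulum that turns inactive cortisone back into cortisol inside the cell. The transcription factor encoded by CEBPB binds the HSD11B1 promoter in several cell types and is itself induced by glucocorticoids and by inflammatory cytokines. ALDH1A1 encodes retinal dehydrogenase 1, which oxidises retinal to retinoic acid, the ligand of the retinoic acid receptors. Both enzymes therefore make an active nuclear receptor ligand within the tissue where they are expressed. Cortisol rises in fetal sheep as term approaches, and glucocorticoids and retinoic acid are both known as agents that mature the contractile response of the fetal ductus.

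Total RNA of each vessel was hybridised to 1 single-colour Agilent array per sample. The groups were preterm ductus and preterm aorta at 97 days of gestation, near-term ductus and near-term aorta at 136 days, and newborn ductus and newborn aorta at 12 hours after birth, with 145 days as full term. The labels give no treatment and no genetic change. Each of the 6 groups held 4 arrays, which the study's design text ascribes to 4 animals, so n = 4 in every group. The sample titles give 100 and 140 days for the fetal ages.

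All levels are normalised log2 signals, that is the log2 processed signal of a probe minus the 75th percentile of its array, so that 0 is that percentile and 1 unit is a doubling. The 75th percentile ran from 322.1 to 1143 over the 24 arrays, and 66.2% to 94.4% of spots were well above background. The spike-in detection limit, a measure of array sensitivity from the control spots, was above 1.5 on 2 preterm ductus, 2 near-term ductus, 0 newborn ductus, 3 preterm aorta, 3 near-term aorta and 2 newborn aorta arrays. Because each stage had its own slide and each vessel its own slide column, stage effects cannot be told apart from slide effects, nor vessel effects from column effects. The smooth muscle marker CNN1 (calponin 1), the 1 of 9 such markers with a named probe, was well above background on all arrays of every group where it was measured, at group means of 4.99 to 6.13. In 1 near-term aorta array its spot was marked and left out.

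The brighter HSD11B1 probe (A_70_P051221) was above background on all 24 arrays. Within each vessel its mean was lowest at the preterm stage. In the ductus its normalised log2 signal was −3.74, −2.74, −3.74 and −2.67 on the preterm arrays, −2.07, −2.41, −2.25 and −2.82 on the near-term arrays and −1.31, −2.73, −1.69 and −0.90 on the newborn arrays. Thus 3 of the 4 near-term ductus arrays were above every preterm ductus array, and 3 of the 4 newborn ductus arrays were above all 8 fetal ductus arrays. In the aorta the signal was −4.96, −4.26, −3.57 and −3.84 on the preterm arrays, −2.93, −1.40, −2.81 and −2.04 on the near-term arrays and −3.64, −3.30, −3.06 and −2.97 on the newborn arrays. All 4 near-term aorta arrays were above all 4 preterm ones, and all 4 newborn aorta arrays were below all 4 near-term ones.

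Near-term minus preterm, HSD11B1 differed by 0.84 ± 0.40 (SE) in the ductus, with a 95% interval of −0.00 to 1.68, and by 1.86 ± 0.40 in the aorta (interval 1.02 to 2.70), a 3.64-fold higher geometric mean in the near-term aorta. The median over all tested probes was 0.22 in the ductus and 0.13 in the aorta. The maturation difference of the ductus minus that of the aorta was −1.02 ± 0.57, with an interval of −2.21 to 0.16 that includes 0. With normexp background correction the aorta difference was 1.19 and the ductus minus aorta value −0.45. These near-term minus preterm values were known when the genes were chosen, so they describe the members and are given with no test. Group means of HSD11B1 ran, from the top, newborn ductus (−1.66), near-term aorta (−2.29), near-term ductus (−2.38), preterm ductus (−3.22), newborn aorta (−3.24) and preterm aorta (−4.15), and the arrays of each pair of neighbours in that order overlapped.

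The second HSD11B1 probe (A_70_P051222) was dim. It was well above background on 2, 3 and 3 of the 4 preterm, near-term and newborn ductus arrays, and on 0, 3 and 1 of the 4 aorta arrays of the same stages. Its means were −6.22, −4.94 and −5.15 in preterm, near-term and newborn ductus and −6.29, −5.08 and −5.92 in the aorta, means that include arrays on which it was not well above background, so no order of stages is read from them. Deviations of this probe from its group means followed the spike-in detection limit of the array closely (r = 0.91 over 24 arrays, sharing the same arrays and scaling), against r = 0.35 for the brighter probe, 0.20 for CEBPB and 0.00 for ALDH1A1. The brighter probe stands for HSD11B1 in the rest of the text.

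CEBPB (probe A_70_P002791, named on the array as LOC443277) had its highest signal after birth. In the ductus it was −2.97, −3.52, −2.71 and −2.09 on the preterm arrays, −2.04, −2.82, −1.72 and −2.00 on the near-term arrays and −0.05, −0.63, −0.17 and −0.07 on the newborn arrays. In the aorta it was −3.80, −3.38, −2.16 and −2.81 on the preterm arrays, −1.50, −2.34, −1.95 and −2.15 on the near-term arrays and −1.11, −1.28, −1.05 and −1.38 on the newborn arrays. Preterm and near-term arrays overlapped in both vessels, whereas all 4 newborn arrays were above all 8 fetal arrays of the same vessel.

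Before birth CEBPB differed by 0.68 ± 0.33 in the ductus, near-term minus preterm (95% interval −0.00 to 1.36), and by 1.05 ± 0.33 in the aorta (0.37 to 1.73). The maturation difference of the ductus minus that of the aorta was −0.37 ± 0.46, again with an interval that includes 0 (−1.34 to 0.59). These values depended on the weight of single arrays: with array weights they were 1.22 in the ductus, 0.44 in the aorta and 0.78 for ductus minus aorta, and on the arrays with a detection limit under 1.5, 1 against 1 in the aorta, the aorta difference was 2.30 and ductus minus aorta −1.59. After birth, newborn minus near-term, CEBPB differed by 1.92 ± 0.33 in the ductus and 0.78 ± 0.33 in the aorta. In the order of its group means the newborn ductus (−0.23) did not overlap with the newborn aorta (−1.20), nor did the newborn aorta with the near-term aorta (−1.99), while the near-term aorta, near-term ductus (−2.15), preterm ductus (−2.82) and preterm aorta (−3.04) each overlapped with the next.

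ALDH1A1 (probe A_70_P030026, named on the array as LOC443343) was above background on all 24 arrays. Its ductus signal was −0.98, −0.48, −0.56 and −1.10 on the preterm arrays, 0.29, 0.43, 0.33 and −0.05 on the near-term arrays and −0.63, 0.19, 0.10 and 0.07 on the newborn arrays. Its aorta signal was −2.15, −2.15, −1.55 and −1.78 on the preterm arrays, −1.20, −0.39, −1.01 and 0.14 on the near-term arrays and −0.57, −1.14, −0.67 and −0.97 on the newborn arrays. All near-term arrays were above all preterm arrays of the same vessel, and newborn and near-term arrays overlapped.

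The near-term minus preterm difference of ALDH1A1 was 1.03 ± 0.26 in the ductus (95% interval 0.48 to 1.57), a 2.04-fold higher geometric mean near term, and 1.29 ± 0.26 in the aorta (0.75 to 1.84), a 2.45-fold higher one. The ductus value minus the aorta value was −0.27 ± 0.37 (−1.04 to 0.51). After birth, newborn minus near-term, the differences were −0.31 ± 0.26 in the ductus and −0.22 ± 0.26 in the aorta, both with intervals that include 0. In order, its group means were near-term ductus (0.25), newborn ductus (−0.07), near-term aorta (−0.62), preterm ductus (−0.78), newborn aorta (−0.84) and preterm aorta (−1.91). Each overlapped with the next except the newborn aorta, all of whose arrays were above those of the preterm aorta.

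**Figure D1:**
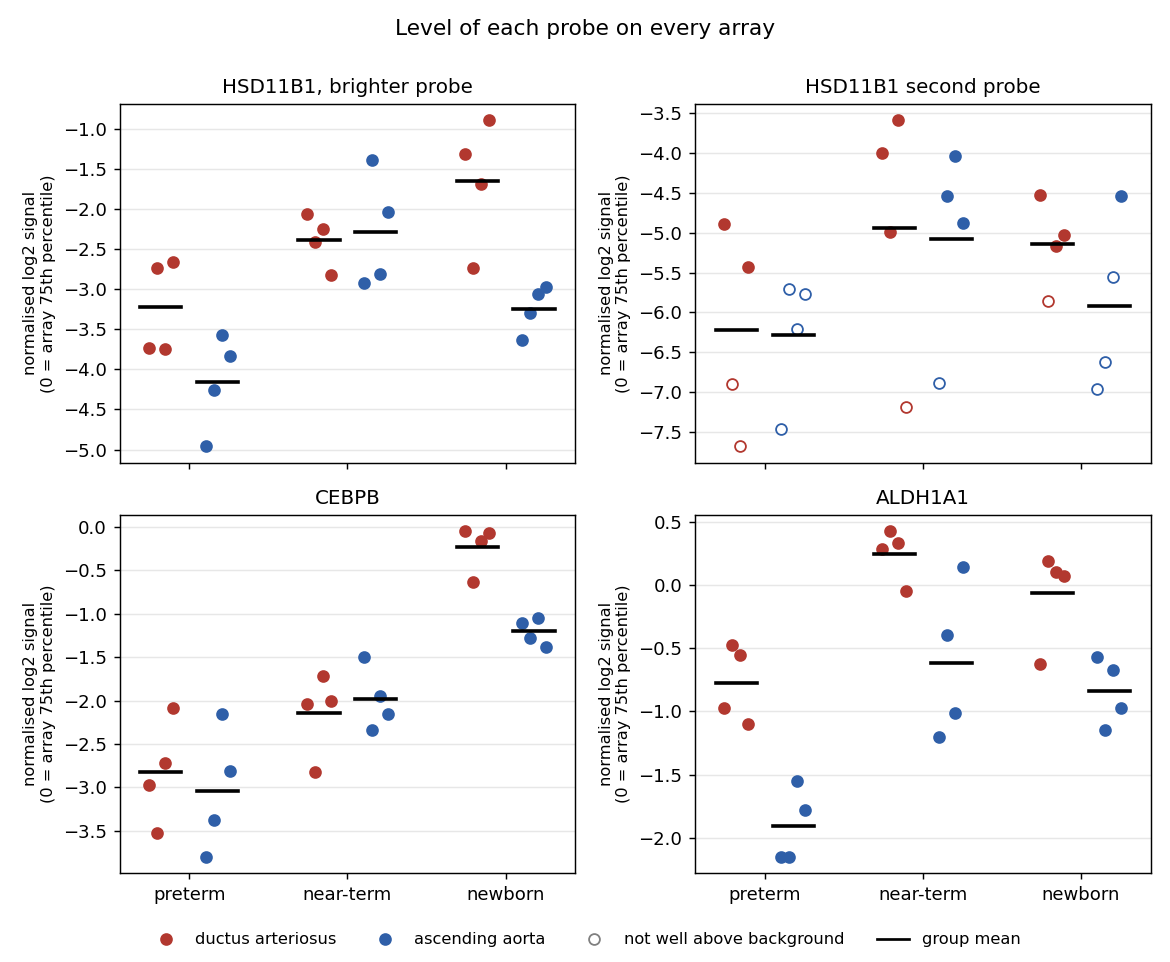
Normalised log2 signal of the 2 HSD11B1 probes, CEBPB and ALDH1A1 on every array (y axis, 0 is the array's 75th percentile) against stage, with the ductus on the left of each pair in red and the aorta on the right in blue. Points are single arrays, open points are not well above background and black lines are means of 4 arrays; near-term arrays of ALDH1A1 are all above preterm ones in both vessels, and newborn arrays of CEBPB are above all fetal ones.

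Thus, near-term minus preterm, all 3 genes had a positive difference in both vessels, as 67.6% of all tested probes had in the ductus and 61.7% in the aorta. Near-term arrays did not overlap with preterm arrays for 1 of 3 genes in the ductus (ALDH1A1) and for 2 of 3 in the aorta (HSD11B1 and ALDH1A1), where 2.86% and 4.03% of all tested probes were higher near term without overlap. From these counts nothing is read, since the genes were chosen with them known. Between near term and birth the newborn arrays were all above the near-term ones for CEBPB in each vessel, 1 of 3 genes, against 7.27% of tested probes in the ductus and 5.7% in the aorta. HSD11B1 was the 1 gene whose newborn aorta arrays were all below the near-term ones (newborn minus near-term −0.95 ± 0.40), as 5.58% of tested probes were. Its ductus difference was 0.73 ± 0.40, with arrays that overlapped and a 95% interval that includes 0 (−0.11 to 1.57). The near-term arrays also enter the differences known when the genes were chosen. The newborn minus near-term values are therefore a description with no test, and nothing is read from their counts.

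**Figure D2:**
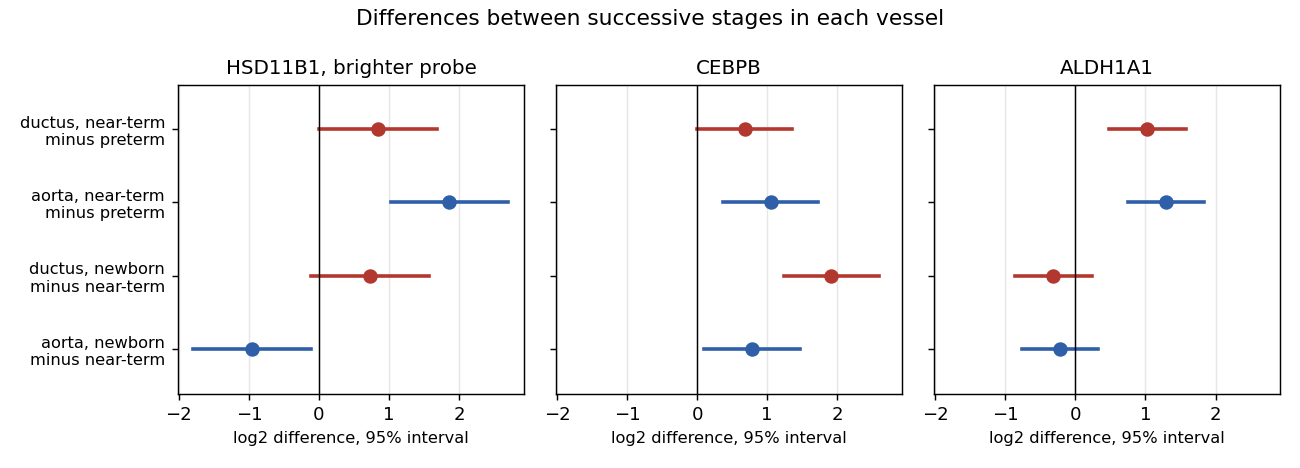
Log2 differences between successive stages (x axis) for HSD11B1, CEBPB and ALDH1A1, with ductus rows in red above aorta rows in blue; points are differences of means of 4 arrays and bars are 95% intervals of the limma fit. All near-term minus preterm points lie to the right of 0, and after birth HSD11B1 lies to the right in the ductus (0.73) and to the left in the aorta (−0.95). The bar of that ductus value includes 0 (−0.11 to 1.57).

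Other cell types of the vessel wall were followed through marker genes, because the RNA came from whole tissue, in which fewer cells of a type and less RNA per cell cannot be told apart. Of 9 adipocyte markers 6 had a named probe, and FABP4, the fatty acid binding protein of fat cells and small vessel endothelium, was 9.04-fold higher in near-term than in preterm aorta (log2 difference 3.18 ± 0.55, adjusted p = 0.011, limma with Benjamini-Hochberg adjustment). The 6 adipocyte markers summed to 1.42 to 17.6 times the 75th percentile on near-term aorta arrays and to 0.433 to 0.995 times on preterm aorta arrays, with the top value on near-term aorta replicate 4. Adipocyte and blood signal thus ran highest on a single array. That array had the highest signal of HBB (beta globin, the 1 of 6 red cell markers with a named probe), 95.8 times the 75th percentile against 5.76 for the lowest near-term aorta array, and the highest ALDH1A1 signal of its group. Without it the near-term minus preterm aorta difference was 1.04 for ALDH1A1, 1.78 for HSD11B1 and 1.11 for CEBPB. In the ductus the summed adipocyte markers ran from 0.570 to 1.61 near term and from 0.452 to 1.14 preterm. There 0 of 6 passed in limma, with 2 of 6 at an unadjusted p under 0.05 and all 6 above 0. FABP4 was at −3.07 to −2.55 on near-term ductus arrays and −6.03 to −4.43 on preterm ductus arrays, which do not overlap (difference 2.34 ± 0.55, adjusted p = 0.0718), and UCP1 differed by 3.47 ± 1.44 (adjusted p = 0.371). LEP and UCP1 were well above background on 2 of 4 preterm ductus arrays each. No marker of another cell type passed near-term minus preterm in either vessel (limma). Both macrophage markers were above 0 in each vessel, 1 of 2 with an unadjusted p under 0.05. CD86 means were −3.99 preterm and −3.16 near term in the ductus and −4.18 and −3.26 in the aorta. CNN1, 1 of 4 endothelial and 1 of 3 mast cell markers had such a p in the ductus, and 1 of 3 fibroblast, lymphocyte and hepatocyte markers each in the aorta. The part of all these cells in the members' differences was not tested.

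The 2 vessels were then compared at each stage. With both fetal stages averaged, ALDH1A1 had a log2 difference of 1.00 ± 0.19, fetal ductus minus fetal aorta (95% interval 0.61 to 1.38, 2.00-fold), where the median over all tested probes was −0.16 and 3.45% of them passed in limma. The difference was 1.13 ± 0.26 preterm, where all 4 ductus arrays were above all 4 aorta arrays, as 3.17% of tested probes were, and 0.87 ± 0.26 near term, where only near-term aorta replicate 4 (0.14) reached into the ductus range. An ALDH1A1 difference between the preterm vessels was among the results known when the genes were chosen, so the fetal values of ALDH1A1 are a description with no test. Without near-term aorta replicate 4 the fetal difference was 1.12. In the newborn, ALDH1A1 differed by 0.77 ± 0.26, ductus minus aorta, and did not pass (adjusted p = 0.0663, limma).

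The fetal ductus minus fetal aorta differences of HSD11B1 (0.42 ± 0.28, 95% interval −0.17 to 1.01, adjusted p = 0.434) and CEBPB (0.03 ± 0.23, −0.45 to 0.51, adjusted p = 0.954) did not pass in limma. By stage, HSD11B1 differed by 0.93 ± 0.40 preterm and −0.09 ± 0.40 near term, ductus minus aorta. CEBPB differed by 0.21 ± 0.33 preterm and −0.16 ± 0.33 near term. The markers that passed in this comparison were CNN1, the fibroblast proteoglycan gene DCN and the mast cell genes TPSB2 and FCER1A (all higher in the fetal ductus, 1.62-fold to 2.06-fold) and the lipid genes FABP4 and LPL (log2 differences −1.63 and −1.20). DCN was 1 of 3 fibroblast markers, and the others went the other way without passing (COL1A1 −0.43, COL3A1 −1.25, adjusted p = 0.335 and 0.0521, limma). Of 3 mast cell markers the third, KIT, was lower in the fetal ductus and did not pass. The part of these cells in the ALDH1A1 difference was not tested.

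After birth HSD11B1 was 3.00-fold higher in newborn ductus than in newborn aorta (log2 difference 1.59 ± 0.40, adjusted p = 0.0159, limma), with all 4 newborn ductus arrays (−2.73 to −0.90) above all 4 newborn aorta arrays (−3.64 to −2.97). It was the 1 gene of the 3 that passed, in a comparison in which 10.1% of all tested probes passed in either direction. Of these 1416 probes 721 were higher in the newborn ductus, and the median over all tested probes was −0.28. CEBPB arrays did not overlap either, at −0.63 to −0.05 in the newborn ductus and −1.38 to −1.05 in the newborn aorta, but its difference of 0.97 ± 0.33 had an adjusted p of 0.0635 (limma). It passed with the detection limit class as a block (adjusted p = 0.0332, limma) and with array weights (adjusted p = 0.0412, limma). CEBPB also passed with the replicate number as a fixed or a random block, and ALDH1A1 with the random one. The numbers were not taken to pair the arrays. By their arrays HSD11B1 and CEBPB were 2 of 3 genes higher in the newborn ductus without overlap, against 6.73% of tested probes. The HSD11B1 call rested on a narrow margin: without newborn ductus replicate 1 or 4 its adjusted p was 0.0541 and 0.0624, with normexp background correction the log2 difference was 0.96 and the adjusted p 0.0533, and among arrays with a detection limit under 1.5 (4 newborn ductus arrays and 2 newborn aorta arrays) they were 1.81 and 0.0595.

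**Figure D3:**
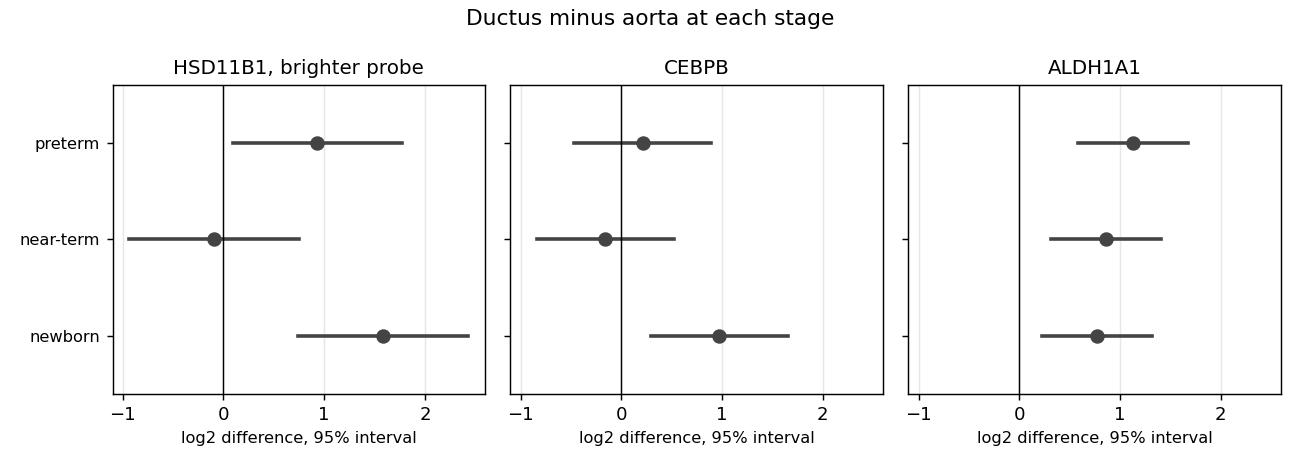
Log2 difference, ductus minus aorta, at each stage (y axis, top to bottom preterm, near-term, newborn) for HSD11B1, CEBPB and ALDH1A1; points are differences of means of 4 and 4 arrays and bars are 95% intervals of the limma fit. ALDH1A1 lies to the right of 0 at all 3 stages (1.13, 0.87 and 0.77), and HSD11B1 is near 0 close to term (−0.09) and at 1.59 in the newborn.

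Newborn vessels were also set against the fetal vessels of both ages. CEBPB was 4.77-fold higher in newborn than in fetal ductus (log2 difference 2.25 ± 0.28, adjusted p = 1.35e-05) and 2.47-fold higher in newborn than in fetal aorta (1.31 ± 0.28, adjusted p = 0.00472, both by limma). With normexp background correction the aorta difference was 0.84 and no longer passed (adjusted p = 0.0513). CEBPB was thus higher after birth in both vessels under the processing used here. HSD11B1 was 2.21-fold higher in newborn than in fetal ductus (1.15 ± 0.35, adjusted p = 0.0273, limma), whereas in the aorta the difference was −0.02 ± 0.35 (95% interval −0.75 to 0.71, adjusted p = 0.979). ALDH1A1 passed in neither vessel, with newborn minus fetal differences of 0.20 ± 0.23 in the ductus (−0.27 to 0.67, adjusted p = 0.526) and 0.42 ± 0.23 in the aorta (−0.05 to 0.90, adjusted p = 0.288). So 2 of 3 genes passed as higher in the newborn ductus, where 17.7% of all tested probes passed in either direction (median over all −0.26). In the newborn aorta 1 of 3 did, where 10.3% passed in either direction (median −0.18). Of the passing probes, 1028 of 2475 were higher in the newborn ductus and 657 of 1446 in the newborn aorta.

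The HSD11B1 call for the ductus also depended on single arrays. Without newborn ductus replicates 1, 3 and 4 in turn the adjusted p was 0.0978, 0.0594 and 0.128, and the log2 difference was 1.03, 1.16 and 0.89. With normexp the difference was 0.55 (adjusted p = 0.102), and among arrays with a detection limit under 1.5 it was 1.27 (adjusted p = 0.0669).

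The newborn minus fetal change of the ductus exceeded that of the aorta by 1.17 ± 0.49 for HSD11B1 and by 0.95 ± 0.40 for CEBPB, while for ALDH1A1 the ductus change minus the aorta change was −0.23 ± 0.32. None of the 3 differences passed in limma (adjusted p = 0.379, 0.376 and 0.877), while 2 of 3 had an unadjusted p under 0.05, and 0.879% of all tested probes passed. A different birth response of the vessels was not shown for these genes.

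Of 7 macrophage markers 2 had a named probe, and they were looked at where HSD11B1 or CEBPB passed. Both passed in newborn against fetal ductus. Only CD14 passed in newborn against fetal aorta, and only CD86 in newborn ductus against newborn aorta. CD14, the lipopolysaccharide co-receptor of monocytes and macrophages, was 3.15-fold higher in newborn than in fetal ductus (adjusted p = 2.36e-06, limma) and 2.15-fold higher in newborn than in fetal aorta (adjusted p = 0.000413). For CD14 both probes on the array had the same sign in these comparisons. CD86, a costimulatory receptor of antigen-presenting cells, was 2.59-fold higher in newborn ductus than in newborn aorta (adjusted p = 0.0138) and 2.20-fold higher in newborn than in fetal ductus (adjusted p = 0.0106). In the second of these only 1 of its 2 probes, the brighter one given here, had this sign. CD14 did not pass in newborn ductus against newborn aorta (1.41-fold higher, adjusted p = 0.13, limma). CD86 did not pass in newborn against fetal aorta, with means of −4.18, −3.26 and −3.81 in preterm, near-term and newborn aorta. The summed signal of both markers was 0.337 to 0.421 times the 75th percentile in preterm, 0.375 to 0.539 in near-term and 1.10 to 1.42 in newborn ductus, and 0.315 to 0.472, 0.425 to 0.505 and 0.569 to 1.20 in the aorta of the same stages. CD14 and CD86 were well above background on all 24 arrays. In newborn against fetal ductus the endothelial gene NOS3 also passed as higher (2.02-fold, adjusted p = 0.0234, limma). There 1 of 6 adipocyte markers passed as higher and 1 of 3 mast cell markers as lower. Of 3 hepatocyte markers 1 passed in each direction. In newborn against fetal aorta CNN1 (1.98-fold, adjusted p = 0.00123, limma) and 1 of 6 adipocyte markers passed as higher. There 1 each of the endothelial, fibroblast, mast cell and hepatocyte markers passed as lower. The part of all these cells in the differences of HSD11B1 and CEBPB was not tested. NOS3, which encodes endothelial nitric oxide synthase, was also 3.04-fold higher in newborn ductus than in newborn aorta (adjusted p = 0.00589, limma), as 1 of 4 endothelial markers with a named probe. DCN, 1 of 3 such fibroblast markers, was 2.47-fold higher (adjusted p = 0.00265, limma). The other fibroblast markers, COL1A1 and COL3A1, were lower in the newborn ductus without passing (log2 differences −0.44 and −0.75). FABP4 was lower in newborn ductus than in newborn aorta (log2 difference −2.10 ± 0.55, adjusted p = 0.02), as 1 of 6 adipocyte markers. The neutrophil granule genes BAC5 and CATHL1B and the hepatocyte gene ALB also passed as lower there (adjusted p = 0.0467, 0.031 and 0.0342), but they were well above background on only 1, 1 and 0 of the 4 newborn ductus arrays, so no size is given. The part of these cells in the HSD11B1 difference was not tested.

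The other genes of glucocorticoid action were sparsely covered, since only 1192 probes of 687 genes carry a symbol: 13 of 30 had a named probe and 12 were tested. In newborn against fetal ductus 1 of 12 passed as higher (NFKBIA) and 1 as lower (CYP17A1), with a median of −0.52. NFKBIA, which encodes the inhibitor of NF-kappa-B and is induced both by glucocorticoids and by NF-kappa-B itself, was 4.06-fold higher there (log2 difference 2.02 ± 0.26, adjusted p = 1.75e-05, limma) and 1.91-fold higher in newborn than in fetal aorta (adjusted p = 0.025), where it was the 1 of 12 that passed. It was also the 1 of 12 that passed in newborn ductus against newborn aorta, 1.94-fold higher in the ductus, at an adjusted p of 0.0476 that held in 11 of 22 refits. CYP17A1, the steroid 17-alpha-hydroxylase, fell by 0.42 in the newborn ductus (adjusted p = 0.0327, limma, past the threshold in 15 of 26 refits). NR3C1, MC2R, CYP11A1 and CYP11B1, also among the 12, were well above background on 0 of 4 newborn ductus arrays. No fall of these genes is therefore read from the median of −0.52.

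Near-term minus preterm, 0 of 12 glucocorticoid genes passed in either vessel (limma, 1 of 12 with an unadjusted p under 0.05 in each). A positive difference was seen for 10 of 12 in each vessel, against 67.6% and 61.7% of all tested probes in the ductus and the aorta, and the median was 0.71 and 0.32, against 0.22 and 0.13 over all tested probes. Among the 12, NR3C1 and MC2R were well above background on 0 of 4 preterm aorta arrays and MC2R on 0 of 4 preterm ductus arrays, so no trend is read from that count. In those comparisons 0.314% and 0.493% of all tested probes passed, and 0% for the difference between the vessels, where 224 probes had an unadjusted p under 0.05. NFKBIA had the smallest p in the ductus (log2 difference 0.87 ± 0.30, adjusted p = 0.277) and HSP90AA1, the chaperone that holds the unliganded glucocorticoid receptor, in the aorta (−0.44 ± 0.19, adjusted p = 0.415). Newborn minus near-term, NFKBIA was the 1 of 12 that passed in the ductus (3.01-fold higher, adjusted p = 0.00178, with 10.8% of tested probes passing) and 0 of 12 passed in the aorta (1 of 12 with an unadjusted p under 0.05, with 6.44% of tested probes passing). Between the vessels 0 of 12 passed preterm, where 0.707% of tested probes did, and 0 of 12 near term, where 1.15% did, with 0 of 12 at an unadjusted p under 0.05 in both.

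The counterpart enzyme and the receptors were looked at for their role, outside the rule for named genes. HSD11B2, which inactivates cortisol to cortisone, had means of −3.65, −4.14 and −5.13 in preterm, near-term and newborn ductus and −2.96, −2.87 and −2.93 in the aorta, with SDs of 0.55 to 2.48. Its newborn difference of −2.20 ± 1.03, ductus minus aorta, did not pass (adjusted p = 0.168, limma), nor did its near-term minus preterm differences of −0.49 ± 1.03 in the ductus and 0.09 ± 1.03 in the aorta. NR3C1, the glucocorticoid receptor, was well above background on 1, 2 and 0 of 4 preterm, near-term and newborn ductus arrays and on 0, 1 and 1 aorta arrays, so its points in the plot of newborn against fetal differences, and its share in the counts above, rest on signal mostly at background. NR3C2, the mineralocorticoid receptor, which also binds cortisol, was above background on all arrays and passed in none of the comparisons.

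Of 9 C/EBP family members and partners 2 had a named probe. DDIT3 (CHOP), a stress-induced C/EBP family member that pairs with CEBPB, was 1.81-fold higher in newborn than in fetal ductus (adjusted p = 0.0162, limma) and 1.71-fold higher in newborn than in fetal aorta (adjusted p = 0.0428, limma). The first was past the threshold in 23 of 26 refits and the second in 13 of 26. The lowest log2 differences among the refits were 0.06 in the ductus and 0.19 in the aorta. CREB1, a cyclic AMP responsive factor that binds the CEBPB promoter, passed in none. Of 37 retinoid genes only TTR, the plasma carrier of thyroxine and retinol-binding protein, had a named probe, and it passed in none of the comparisons (near-term minus preterm 1.18 ± 1.23 in the ductus and 1.81 ± 1.23 in the aorta). Of 8 other aldehyde dehydrogenases 0 could be assigned a probe by symbol, so no other retinal dehydrogenase could be followed.

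**Figure D4:**
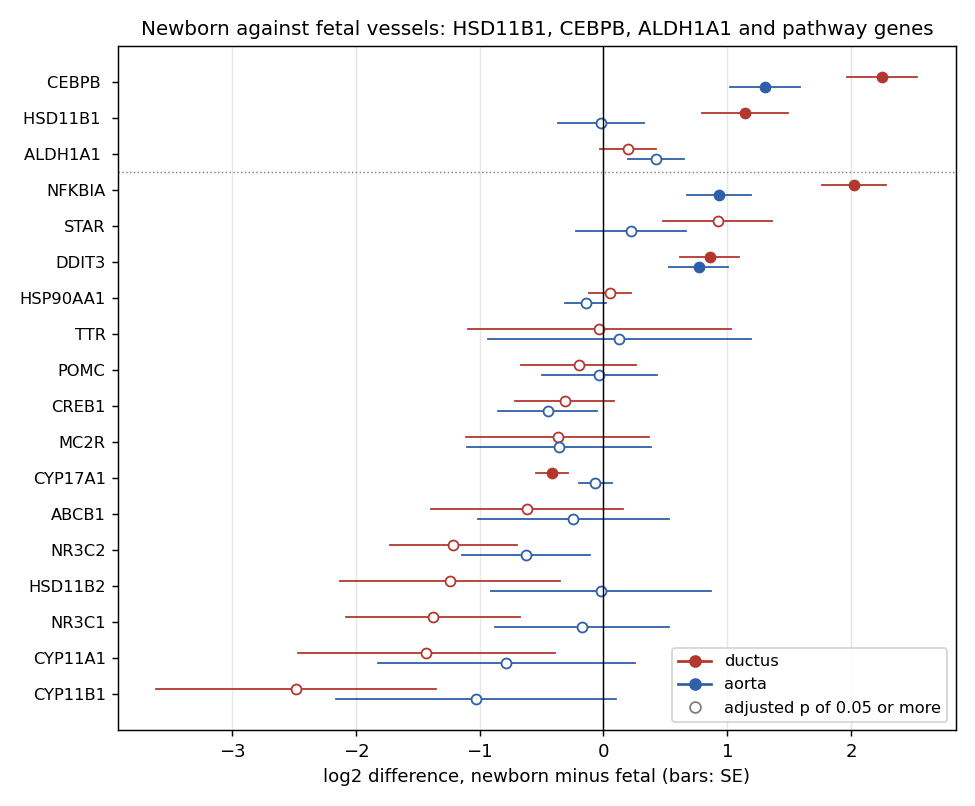
Log2 difference, newborn minus fetal (x axis), of HSD11B1, CEBPB and ALDH1A1 (above the dotted line) and of the 15 tested genes of glucocorticoid, C/EBP and retinoid biology, ductus in red and aorta in blue; bars are standard errors and filled points have a limma adjusted p under 0.05. CEBPB (2.25 and 1.31), NFKBIA (2.02 and 0.93) and DDIT3 (0.86 and 0.77) are filled in both vessels, and HSD11B1 (1.15) and CYP17A1 (−0.42) are filled in the ductus alone.

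The genes whose signal ran most like that of each member were taken as the 5 named probes with the highest Pearson correlation over all 24 arrays, which share their stage, vessel and array sensitivity with the members. For HSD11B1 these included CD86 (r = 0.80), the tetraspanin CD9 (0.79), complement C3 (0.79) and the Fc receptor gamma chain FCER1G (0.75). For CEBPB they were ZFP36 (0.89), which encodes an mRNA-destabilising protein, the pentraxin PTX3 (0.89), CD14 (0.87), the neutrophil chemokine CXCL8 (0.86) and the AP-1 subunit JUNB (0.85). For ALDH1A1 they were HSD11B1 (0.73), 2 probes of CD9 (0.70 and 0.66), FCER1A (0.68) and TLR2 (0.66). Among the members themselves the correlation was 0.73 for HSD11B1 with ALDH1A1, 0.62 for HSD11B1 with CEBPB and 0.44 for CEBPB with ALDH1A1. The members were chosen with their near-term minus preterm differences known, so nothing is read from the correlations among them. The second HSD11B1 probe correlated with the first at 0.59 and had CR2 (0.89), NOX4 (0.86) and SLAMF1 (0.80) among its closest.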

How the data were processed

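Per the labels, Cy3-labelled RNA was hybridised to single-colour Agilent arrays. Per the file headers the deposited values are linear spot intensities (the brightness, or intensity, of each spot) written by Agilent's Feature Extraction software (version 9.5.3.1, protocol GE1-v5_95_Feb07) for array design 019921, with background subtracted by the authors' software and flags for spots above background. Control and marked spots were left out. From each log2 processed signal the array's own 75th percentile was subtracted, and replicate spots were averaged per probe. Probes well above background on at least 4 of 24 arrays were tested two-sided with limma 3.58.1 under R 4.3.3, by lmFit on 6 group means of all 24 arrays followed by eBayes, with Benjamini-Hochberg adjustment over 13997 probes and a threshold of 0.05. The procedure was checked on simulated data. Errors after ± are SEs. Symbols came from the array and from RefSeq names of ARS-UI_Ramb_v3.0: 1192 probes of 687 genes. The files name no genome build and hold no probe sequences. A gene with several probes is given by the one with the highest mean log2 signal. Named are the members, the passing genes of each list (up to 4, otherwise up to 2 by p) and the 5 most alike probes, of which 1 is not reported here. The members and lists were chosen with earlier results of these data known, so p-values are not independent evidence. Members were tested only in newborn and averaged fetal comparisons, and ALDH1A1 not in the fetal one. Whether ductus and aorta of 1 number came from 1 animal is not stated, and 6 of 12 same-numbered pairs had deviations correlated above 0.1 (3 of 4 in newborns), so the numbers were not taken to pair the arrays. Among 276 pairs of arrays 0 were identical. The number of arrays limits the precision.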

Additional observations from a re-analysis of the deposited data

Results flagged for a closer look

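ALDH1A1 on newborn ductus replicate 1 stood apart from the other arrays of its group, at a normalised log2 signal of −0.63 against 0.07 for the nearest of the other 3 arrays. This was 1 of 24 sets of arrays looked at, the 4 member probes in each of the 6 groups, with 1.2 to be met by chance. Without that array the newborn ductus minus newborn aorta difference of ALDH1A1 was 0.96 in place of 0.77, and its limma adjusted p 0.0374 in place of 0.0663.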

How the results depend on the processing

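Across 14 alternative settings and 16 left-out arrays the ALDH1A1 difference, fetal ductus minus fetal aorta, was 0.88 to 1.51, and CEBPB passed as higher in newborn than in fetal ductus under the same 14 settings and without each of 12 arrays in turn. Normexp background correction gave HSD11B1 a newborn ductus minus newborn aorta difference of 0.96 (adjusted p = 0.0533), a newborn minus fetal ductus difference of 0.55 and a near-term minus preterm aorta difference of 1.19, and gave CEBPB a newborn minus fetal aorta difference of 0.84. With arrays of a detection limit under 1.5 alone these 2 HSD11B1 ductus differences were 1.81 and 1.27, the near-term minus preterm difference was 0.70 for ALDH1A1 in the ductus and 2.30 for CEBPB in the aorta (1 array against 1), and ductus minus aorta −1.59 for CEBPB. Array weights gave the maturation difference of CEBPB as 1.22 in the ductus, 0.44 in the aorta and 0.78 for ductus minus aorta. A fit of the compared groups alone put HSD11B1 in the newborn vessels at 1.59 with an adjusted p of 0.0772, and CEBPB past the threshold at 0.97 (0.0446). CEBPB also passed there with array weights (0.93), with the detection limit as a block (1.13) and with either replicate block (0.97, adjusted p = 0.0311 for the fixed and 0.027 for the random one). ALDH1A1 passed with array weights (0.72) and the random replicate block (0.77). Leaving out 1 array at a time gave 1.33 to 1.94 (HSD11B1) and 0.67 to 0.96 (ALDH1A1) for newborn ductus minus newborn aorta, and 0.89 to 1.504 (HSD11B1) for newborn minus fetal ductus. The replicate block changed no other member call. The causes were not tested. Over these settings the number of all probes called ran from 371 to 3653 (1416 as reported) for the newborn vessels, 228 to 3491 (483) for the fetal vessels, 1719 to 7525 (2475) and 566 to 2983 (1446) for newborn against fetal ductus and aorta, 74 to 660 (123) for the difference of these, and 0 to 6834 (44) and 12 to 2044 (69) for near-term against preterm ductus and aorta, with 0 to 2513 (0) for their difference. It ran from 614 to 8944 (1515) and 0 to 3531 (902) for newborn against near-term ductus and aorta, 33 to 3148 (99) for the preterm vessels and 40 to 3287 (161) for the near-term vessels. In no group was the second HSD11B1 probe well above background on all arrays, and its deviations from group means followed the spike-in detection limit (r = 0.91). The reason was not tested, and no comparison is read from this probe.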
